A study of Mus musculus with 10 samples.

Results

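Transcripts of 9 genes that mark T cells, natural killer (NK) cells and B cells were followed in livers of mice heterozygous for a knockout of Tgfbr2, which encodes a receptor subunit that binds TGF-beta. The genes are Cd3d, Cd3e, Cd3g, Cd4, Cd8a, Foxp3, Gzmb, Nkg7 and Cd79a. They were taken by gene symbol from the platform annotation, which gave 9 of the 9 genes, each with 1 probe, among 16383 genes with a symbol. The study compared 6 Tgfbr2+/- mice with 4 wild-type littermates, all on a chow diet, by 2-colour arrays of total liver RNA, each against 1 pool made from livers of 6 wild-type mice. Sex is stated as male in the Tgfbr2+/- titles alone. The sources used here do not give age, strain, the construction of the knockout allele, or whether the 4 wild-type mice are among the 6 of the pool. The heterozygous knockout is labelled for the mouse as a whole, not for lymphocytes.

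T cells recognise antigen through a receptor whose signal is passed on by the CD3 chains, and the co-receptors CD4 and CD8 divide them into helper and cytotoxic cells. NK cells and cytotoxic T cells kill through granules that hold granzymes, and B cells carry surface antibody that signals through CD79. TGF-beta restrains T and NK cell activation and supports the Foxp3-expressing regulatory T cells, and liver holds a resident population of lymphocytes, rich in NK and NKT cells, within the sinusoids.

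None of the 9 genes differed detectably between Tgfbr2+/- and wild-type liver. All group differences were at or below 1.08-fold, 6 genes had positive and 3 had negative differences, and the groups overlapped for each gene. By limma 0 of the 9 genes passed a Benjamini-Hochberg adjusted p of 0.05, where 0.0% of the 16383 genes did. At an unadjusted p of 0.05 the count was also 0 of 9, against 2.97% of all genes higher and 2.57% lower in Tgfbr2+/- liver. The groups were free of overlap for 0 of the 9 genes, against 0.726% of all genes higher and 0.354% lower. The median difference was 0.04 over the 9 genes and 0.004 over all genes, on the log2 scale. Of all genes 52.6% had a positive difference.

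Values are log2 ratios of a sample over the wild-type pool, so 0 is the level of the pool. They carry no absolute level, and whether a probe lay above background cannot be read from them. For the same reason the labelled tissue could not be checked against the levels of its marker genes. In whole liver RNA, fewer cells of a type and less RNA per cell cannot be told apart. The direction, sample over pool, is taken as likely from the Tgfbr2 probes, which are then no independent check of it, and every sign below rests on it. The library Tgfbr2+/- replicate 5 correlated with wild-type replicate 1 at r = -0.33 over all probes. The direction of these 2 columns is therefore not settled. With either one turned in sign, limma differences and calls of the genes followed here, their pairwise Pearson r and the list medians were recomputed. Exact permutation tests, group overlap, SDs, most similar genes and median r within lists are given with the deposited signs only. The same holds for Tgfbr2 and for other single genes of the lists. Averaged over its 2 probes, Tgfbr2 was at -0.32 ± 0.22 in Tgfbr2+/- liver (SD, n = 6) and 0.15 ± 0.19 in wild type (SD, n = 4), a difference of -0.47 ± 0.12 (SE, exact permutation p = 0.0143, limma adjusted p = 0.516). The library labelled Tgfbr2+/- replicate 4, at 0.05, lay inside the wild-type range for Tgfbr2, which goes against its label, and the calls without it are given below.

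The 3 CD3 chains are encoded side by side on chromosome 9, and Cd3d and Cd3g start 1355 bases apart and run in opposite directions. RefSeq windows of 250 bases before to 50 after the start were found for 8 of the 9 genes. Those of the CD3 genes are shown 5′ to 3′ on each gene's own strand because Cd3g and Cd3d had the second highest correlation among the 9 genes and Cd3e correlated with neither at an unadjusted p of 0.05. They lie in GRCm38.p6 at chr9:44980382-44980681 (minus strand, Cd3g), chr9:44981536-44981835 (plus strand, Cd3d) and chr9:45009562-45009861 (minus strand, Cd3e). Capitals mark the E-box forms CAGCTG or CACCTG on either strand, which are bound by E proteins, transcription factors of lymphocyte development.
Cd3g: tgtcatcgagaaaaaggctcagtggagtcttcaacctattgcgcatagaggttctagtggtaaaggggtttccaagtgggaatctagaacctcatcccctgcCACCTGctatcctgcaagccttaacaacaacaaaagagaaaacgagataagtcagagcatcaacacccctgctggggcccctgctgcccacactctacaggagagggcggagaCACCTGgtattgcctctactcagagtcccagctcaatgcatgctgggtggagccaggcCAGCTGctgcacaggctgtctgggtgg
Cd3d: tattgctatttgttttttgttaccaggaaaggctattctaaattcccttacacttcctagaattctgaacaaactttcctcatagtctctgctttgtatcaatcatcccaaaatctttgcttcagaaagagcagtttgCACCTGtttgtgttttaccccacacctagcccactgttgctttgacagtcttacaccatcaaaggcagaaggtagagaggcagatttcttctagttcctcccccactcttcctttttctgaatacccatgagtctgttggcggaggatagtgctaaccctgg
Cd3e: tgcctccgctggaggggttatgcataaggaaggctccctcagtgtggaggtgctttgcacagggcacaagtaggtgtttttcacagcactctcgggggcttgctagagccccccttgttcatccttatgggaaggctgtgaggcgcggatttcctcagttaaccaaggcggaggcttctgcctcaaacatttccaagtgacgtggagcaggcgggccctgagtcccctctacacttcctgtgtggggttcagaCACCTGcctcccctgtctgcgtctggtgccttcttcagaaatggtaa

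The Cd3g window held 3 such E-boxes, and those of Cd3d and Cd3e held 1 each. At least 1 was present in 32.9% of 32851 windows of the same length over all genes, and 3 or more in 1.39%. In all, 6 of the 8 genes had an E-box in a window, and Nkg7 and Gzmb did not. This count is by gene over 9 windows, while the shares above are by window. Foxp3 counted through a window with 1 E-box, its other window holding 0. The Runx core TGTGGT, searched on both strands, was found for Nkg7 and Gzmb, and in 16.8% of all windows. These matches describe letters in the windows and show no binding.

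**Figure D1:**
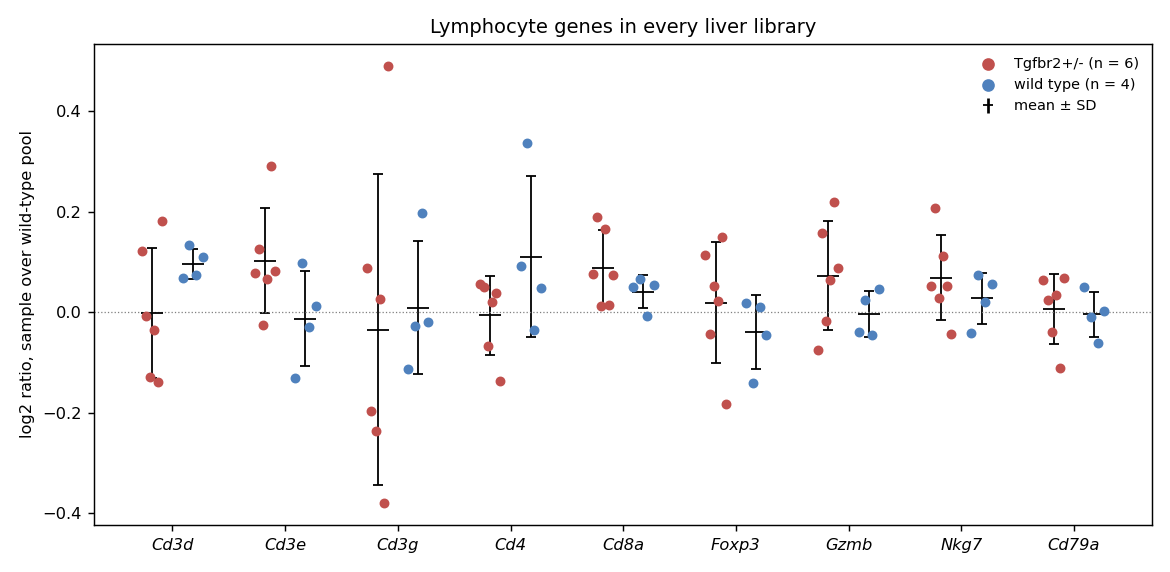
Log2 ratio over the wild-type pool (vertical axis) of each of the 9 genes (horizontal axis) in 6 Tgfbr2+/- libraries (red) and 4 wild-type libraries (blue). Points are libraries, bars are mean ± SD. The groups overlap for each gene, and Cd3g has the widest spread, from -0.38 to 0.49 in Tgfbr2+/- liver.

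Cd3d, Cd3e and Cd3g encode the delta, epsilon and gamma chains that carry the signal of the T cell receptor. Cd3d had a lowest value of -0.14, a median of -0.02 and a highest value of 0.18 in Tgfbr2+/- liver, against 0.07, 0.13, 0.07 and 0.11 in wild-type replicates 1 to 4. The wild-type libraries lay close together, and 4 of the 6 Tgfbr2+/- libraries lay below all of them, 1 among them and 1 above. The difference was -0.10 ± 0.07 (SE, 95% confidence interval -0.24 to 0.05, exact permutation p = 0.186, limma adjusted p = 0.920). Without Tgfbr2+/- replicate 6, the highest library, it was -0.13 with a limma unadjusted p of 0.0424 and an adjusted p of 0.689. It was -0.05 with Tgfbr2+/- replicate 5 turned in sign and -0.06 with wild-type replicate 1 turned.

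Cd3e ran from -0.03 through a median of 0.08 to 0.29 in Tgfbr2+/- liver, against -0.13, 0.10, -0.03 and 0.01 in wild-type replicates 1 to 4. Of the 6 Tgfbr2+/- libraries 2 exceeded the highest wild-type library and 4 lay inside its range, so the sign of its difference, 0.12 ± 0.06, was opposite to that of Cd3d (SE, 95% confidence interval -0.03 to 0.26, exact permutation p = 0.124, limma adjusted p = 0.917). It was 0.02 with Tgfbr2+/- replicate 5 turned in sign, 0.05 with wild-type replicate 1 turned and 0.08 without wild-type replicate 1.

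Cd3g ran from -0.38 through a median of -0.09 to 0.49 in Tgfbr2+/- liver, against -0.11, -0.03, 0.20 and -0.02 in wild-type replicates 1 to 4. Tgfbr2+/- replicate 5 was the lowest and replicate 6 the highest, on both sides of the wild-type range. The difference was -0.04 ± 0.15 (SE, 95% confidence interval -0.37 to 0.28, exact permutation p = 0.805). Its sign depended on single libraries, at 0.03 without Tgfbr2+/- replicate 5, 0.02 without wild-type replicate 3 and 0.08 with Tgfbr2+/- replicate 5 turned in sign. Cd3g varied more over the 10 libraries than 91.7% of all genes, with an SD of 0.24 against a median of 0.11 over all genes. The other CD3 chains lay near the middle, above 52.1% of genes for Cd3d and 53.3% for Cd3e.

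Cd4 encodes the co-receptor of helper T cells and, in mice, also marks some dendritic cells. It ran from -0.14 through a median of 0.03 to 0.06 in Tgfbr2+/- liver, against 0.09, 0.34, -0.04 and 0.05 in wild-type replicates 1 to 4. Wild-type replicate 2 stood above the other 9 libraries, and 4 of the 6 Tgfbr2+/- libraries lay inside the wild-type range. The difference, -0.12 ± 0.07, was the largest in size among the 9 genes with all libraries in, though not without wild-type replicate 2 (SE, 95% confidence interval -0.27 to 0.04, exact permutation p = 0.157, limma adjusted p = 0.919). It was -0.04 without wild-type replicate 2, the high library (limma unadjusted p = 0.495), and -0.07 with array weights or a turned wild-type replicate 1. It was -0.17 without wild-type replicate 3, with a limma unadjusted p of 0.0495 and an adjusted p of 0.999.

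Cd8a encodes a chain of the co-receptor of cytotoxic T cells and is also made by a dendritic cell subset. It lay above the pool in all 6 Tgfbr2+/- libraries, from 0.01 through a median of 0.08 to 0.19, against 0.05, 0.07, -0.01 and 0.05 in wild-type replicates 1 to 4. Of the Tgfbr2+/- libraries 4 exceeded the highest wild-type one, with replicates 2 and 4 the highest. The difference was 0.05 ± 0.05 (SE, 95% confidence interval -0.06 to 0.15, exact permutation p = 0.286). It was 0.03 without Tgfbr2+/- replicate 2, 0.03 without wild-type replicate 3 and 0.07 where wild-type replicate 1 was turned in sign.

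Foxp3 encodes the transcription factor that defines regulatory T cells, whose induction by TGF-beta is well known. It ran from -0.18 through a median of 0.04 to 0.15 in Tgfbr2+/- liver, against 0.02, -0.14, 0.01 and -0.04 in wild-type replicates 1 to 4. Replicates 5 and 6 of the Tgfbr2+/- group were the highest and the lowest of all 10 libraries. The difference was 0.06 ± 0.07 (SE, exact permutation p = 0.410, 95% confidence interval -0.09 to 0.20, or 1.06-fold lower to 1.15-fold higher). It was 0.0084 with Tgfbr2+/- replicate 5 turned in sign, 0.03 without that library, 0.02 without wild-type replicate 2 and 0.10 without Tgfbr2+/- replicate 6.

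Gzmb encodes granzyme B, a serine protease that triggers apoptosis in target cells. It ran from -0.08 through a median of 0.08 to 0.22 in Tgfbr2+/- liver, against -0.04, 0.02, -0.05 and 0.05 in wild-type replicates 1 to 4. In 4 Tgfbr2+/- libraries it exceeded the highest wild-type value, while replicate 1 was the lowest of all. The difference was 0.08 ± 0.06 (SE, 95% confidence interval -0.06 to 0.21, exact permutation p = 0.233). It was 0.0034 with Tgfbr2+/- replicate 5 turned in sign and 0.05 without that library.

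Nkg7 encodes a granule membrane protein of NK cells and cytotoxic T cells. It ran from -0.04 through a median of 0.05 to 0.21 in Tgfbr2+/- liver, against -0.04, 0.07, 0.02 and 0.06 in wild-type replicates 1 to 4. Only replicates 2 and 4 of the Tgfbr2+/- group lay above the wild-type range, the same libraries in which Cd8a was highest. The difference was 0.04 ± 0.05 (SE, 95% confidence interval -0.07 to 0.16, exact permutation p = 0.433). It was 0.01 without Tgfbr2+/- replicate 2, 0.02 without wild-type replicate 1, 0.06 without Tgfbr2+/- replicate 6, and 0.02 with either unsettled column turned in sign.

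Cd79a encodes a signalling chain of the B cell receptor and stands alone among the 9 genes for B cells. It ran from -0.11 through a median of 0.03 to 0.07 in Tgfbr2+/- liver, against 0.05, -0.01, -0.06 and 0.002 in wild-type replicates 1 to 4. It varied least of the 9 genes, with an SD of 0.06 over the 10 libraries, and the groups overlapped. The difference was 0.01 ± 0.05 (SE, 95% confidence interval -0.09 to 0.12, exact permutation p = 0.791). Its sign turned to -0.00038, -0.00098 and -0.0075 when Tgfbr2+/- replicate 1, Tgfbr2+/- replicate 6 or wild-type replicate 3 was left out.

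**Figure D2:**
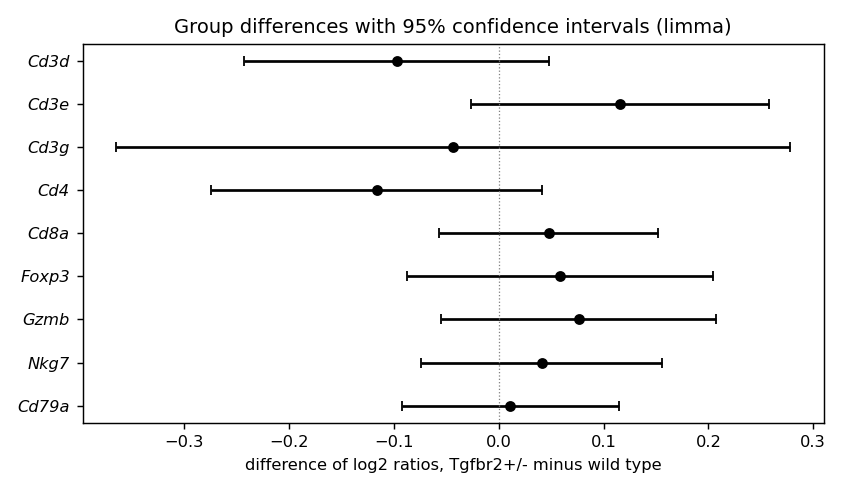
Difference of log2 ratios, Tgfbr2+/- minus wild type (horizontal axis), for each of the 9 genes (rows). Points are limma estimates and bars are 95% confidence intervals. The interval of each gene holds 0, and the widest, that of Cd3g, reaches -0.37.

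With Tgfbr2+/- replicate 5 or wild-type replicate 1 turned in sign, 0 of the 9 genes passed either threshold, as was the case without the library labelled Tgfbr2+/- replicate 4. With the signs as deposited, the widest interval bound, that of Cd3g, corresponds to 1.29-fold. Cd3g was at -0.10 ± 0.14 with wild-type replicate 1 turned and 0.08 ± 0.14 with Tgfbr2+/- replicate 5 turned (SE), with intervals not given here. The bound applies to the ratios and sets no limit on a change of transcripts, since whether a probe lay above background cannot be read. The labels name 6 and 4 mice, so each library was taken as 1 animal, and extraction or hybridisation batches are not given.

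Values of the 9 genes lay close to the pool in both groups. Of the 90 values 7 were more than 0.2 from the pool, of which Cd3g gave 3 and Cd3e, Cd4, Gzmb and Nkg7 gave 1 each. The share of such values over all genes is not given here. For 4 of the 9 genes the SD over the 10 libraries was above the median over all genes, 0.11. The mean over the 9 genes ran from -0.05 in Tgfbr2+/- replicate 3 to 0.07 in Tgfbr2+/- replicate 6, and from -0.01 in wild-type replicate 1 to 0.06 in wild-type replicate 2. Of the 9 genes 8 lay above the pool in each of Tgfbr2+/- replicates 1 and 4, against 3 in Tgfbr2+/- replicate 3, and from 4 to 7 did in the wild-type libraries. Within a library the genes spread most in Tgfbr2+/- replicates 5 and 6, with SDs of 0.20 and 0.20 across the 9 genes, and least in wild-type replicate 4, at 0.05. The same 2 libraries had the widest SD across all genes, at 0.22 and 0.24, against 0.13 to 0.20 in the other 8. The part of this overall spread in the values of single genes was not tested.

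The SD among Tgfbr2+/- libraries was larger than that among wild-type libraries for 8 of the 9 genes, Cd4 being the exception. The same held for 63.9% of all genes, and the median ratio of the SDs was 1.65 over the 9 genes and 1.23 over all genes. Cd3d had the highest ratio, 4.25, with an SD of 0.13 in Tgfbr2+/- liver and 0.03 in wild type. The wild-type SD of Cd3d was larger than that of only 6.10% of genes, and its Tgfbr2+/- SD than that of 61.9%. These are descriptions, and the difference in spread was not tested.

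Genes of the same cells could vary together from mouse to mouse, which was examined by correlation over the 10 libraries. These share the pool and the centring of the columns, and group means were not removed before taking r. Of 36 pairs of the 9 genes 18 had a positive Pearson r, with a median of -0.002, against 0.001 over all pairs of genes. After Benjamini-Hochberg adjustment over the 36 pairs, 0 passed by Pearson's r or Spearman's rho, and 4 had an unadjusted permutation p under 0.05 by Pearson's r.

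The T cell receptor genes Cd3d and Cd3g had r = 0.78 (permutation p = 0.00584, adjusted p = 0.105) and rho = 0.73 (permutation p = 0.0201, adjusted p = 0.324). Without Tgfbr2+/- replicates 3 and 5, the libraries farthest from the median of Cd3d, r was 0.60, and within the 6 Tgfbr2+/- libraries it was 0.91. With either unsettled column turned in sign r was 0.71 or 0.72. Both genes were highest in Tgfbr2+/- replicate 6 and lowest in replicate 5. Cd3g ranked 65th of 16382 genes by likeness to Cd3d. Cd3e, the third neighbour, had r = -0.30 with Cd3d (permutation p = 0.404, adjusted p = 0.692, rho = -0.01, permutation p = 1, adjusted p = 1) and r = -0.26 with Cd3g (permutation p = 0.467, adjusted p = 0.764; rho = -0.25, permutation p = 0.490, adjusted p = 0.842). It ranked 12811th and 11952nd. Without Tgfbr2+/- replicates 3 and 5, farthest from the median of Cd3d, r of Cd3e with Cd3d was 0.001. Without Tgfbr2+/- replicate 5 and wild-type replicate 1, farthest from the median of Cd3e, r of Cd3e with Cd3g was 0.06. Whether the CD3 pairs differ in r was not tested.

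Cd3e followed Gzmb, with r = 0.79 (permutation p = 0.00554, adjusted p = 0.105) and rho = 0.71 (permutation p = 0.0270, adjusted p = 0.324). Without Tgfbr2+/- replicate 5 and wild-type replicate 1, farthest from the median of Cd3e, r was 0.58. Both genes were highest in Tgfbr2+/- replicate 5. Cd8a and Nkg7 had r = 0.70 (permutation p = 0.0223, adjusted p = 0.268) and rho = 0.61 (permutation p = 0.0658, adjusted p = 0.473), and r was -0.08 without Tgfbr2+/- replicates 2 and 4, so that relation rests on these libraries. Cd3d and Foxp3 ran in opposite directions, with r = -0.65 (permutation p = 0.0419, adjusted p = 0.377) and rho = -0.71 (permutation p = 0.0267, adjusted p = 0.324). Their r was -0.45 without Tgfbr2+/- replicates 3 and 5, farthest from the median of Cd3d.

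**Figure D3:**
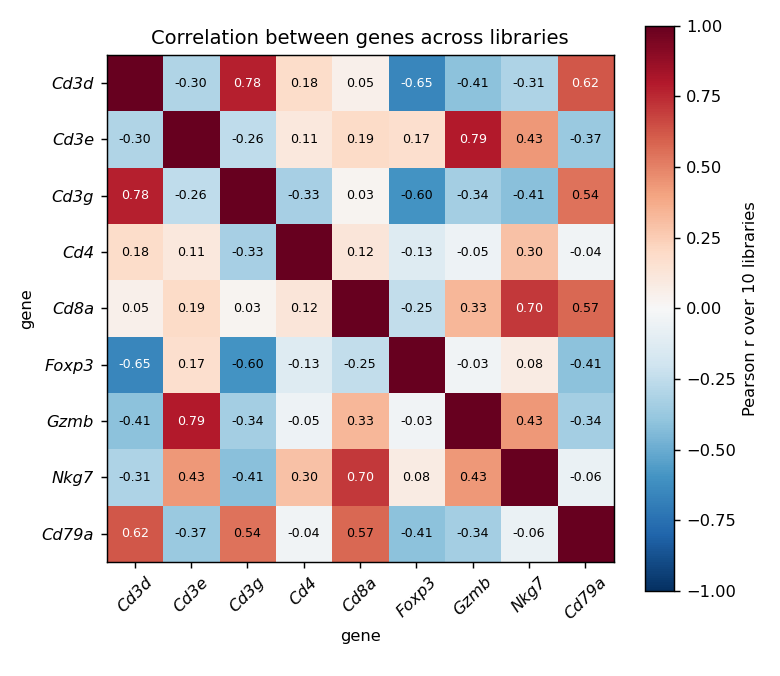
Pearson r over the 10 libraries for each pair of the 9 genes (both axes), from -1 (blue) to 1 (red). Positive and negative pairs are equally frequent, and the highest are Cd3e with Gzmb at 0.79 and Cd3d with Cd3g at 0.78.

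The genes whose patterns were most like those of the 9 genes were also read. Taking the 3 of highest Pearson r over the 10 libraries for each, 0 of the 27 places went to one of the 9 genes or the lymphocyte lists, which together make up 0.763% of all genes, so that a count of 0 says little. These r ran from 0.87 to 0.98. Nos3, Trim16 and Ccdc173 were closest to Cd3d (r = 0.91, 0.89 and 0.88), and Ccdc173, G6pc2 and 1700015G11Rik to Cd3g (r = 0.94, 0.92 and 0.91). Msto1, Sprr2e and Egfr were closest to Cd3e, Nle1, Taf1b and Fam240a to Cd4, and Klhl22, Adamtsl1 and D2hgdh to Cd8a. For Foxp3 they were Mtmr14, Timm13 and Fn3k, for Gzmb Pomk, Gabrr1 and Nomo1, for Nkg7 Ebf2, 4930474N05Rik and Pdxdc1, and for Cd79a Zfp184, Cntd1 and Zer1. The mean of the 3 CD3 chains was closest to Cxcr6 (r = 0.869), a chemokine receptor of liver T and NKT cells that is on the homing list. Arfgap3 (r = 0.8685) and Bmper (r = 0.8682) were almost level with it. Cd3e had a negative r with each of the other chains, so this mean is not a pattern that the 3 chains share.

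Further genes of lymphocyte function were taken from 8 lists. With Tgfbr2+/- replicate 5 turned in sign, the medians of the transcription factor and plasma cell lists changed sign, to 0.02 and -0.003, and with wild-type replicate 1 turned those of the T cell receptor and the cytotoxic and NK cell lists did, to 0.009 and -0.00017. The cytotoxic and NK cell median was -0.01 without wild-type replicate 1, and the regulatory T cell median was -0.0026 without Tgfbr2+/- replicate 6. The T cell receptor median turned positive without Tgfbr2+/- replicate 1 (0.0005), 4 (0.015) or 5 (0.007). The same held without wild-type replicate 2 (0.006) or 3 (0.002). Outside the 9 genes these lists held 116 measured genes, of which 75 had positive and 41 negative differences, with a median of 0.03. Over all genes 52.6% of differences were positive, and the direction counts here and by list were not tested. By limma 0 of the 116 passed an adjusted p of 0.05. At an unadjusted p of 0.05, 6 were higher, or 5.17% against 2.97% of all genes, and 2 were lower, or 1.72% against 2.57%. The 6 were Lcp2, Srgn, Xcl1, Cd22, Cd72 and Itgal, and the 2 were Il2ra and Itgae. The share higher was 4.76% in the T cell signalling list and 7.14% in the homing list. It was 6.90% in the cytotoxic and NK cell list and 10% in the B cell list. The share lower was 15.4% in the regulatory T cell list. Each of these shares rests on 1 or 2 genes.

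In the T cell receptor list 3 of 7 measured genes had positive and 4 negative differences, with a median of -0.003. Beside the 5 already described, the measured genes were Cd247, the CD3 zeta chain, at 0.01 ± 0.09 and Cd8b1, the second CD8 chain, at -0.003 ± 0.04 (differences ± SE). Among 21 T cell signalling genes 15 had positive differences, with a median of 0.04, and 1 passed the unadjusted threshold. This was Lcp2, an adaptor also made by myeloid cells, at 0.33 ± 0.10 (limma adjusted p = 0.704). Vav1, an exchange factor below the receptor, was at 0.08 ± 0.04 (exact permutation p = 0.0095, limma unadjusted p = 0.0533, limma adjusted p = 0.917). The T cell adaptor Trat1 was at 0.24 ± 0.15 (exact permutation p = 0.2). T cell transcription factors had negative differences for 8 of 13, with a median of -0.05 and 0 past the unadjusted threshold. Those of smallest p were Ikzf3 (-0.17 ± 0.09), Lef1 (-0.16 ± 0.08) and Tox (-0.27 ± 0.15).

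Genes of regulatory T cells did not share one direction. Of 13 measured 9 had positive and 4 negative differences, with a median of 0.04. Il2ra, the high-affinity chain of the interleukin-2 receptor, ran from -0.60 through a median of -0.21 to 0.14 in Tgfbr2+/- liver, against -0.09, 0.20, -0.11 and 0.33 in wild-type replicates 1 to 4. The groups overlapped, and the difference was -0.33 ± 0.15 (SE, exact permutation p = 0.0857, limma adjusted p = 0.896). Itgae, an integrin chain of tissue-resident T cells, was at -0.16 ± 0.07 (limma adjusted p = 0.896). Nrp1, which endothelial cells also make, was at 0.36 ± 0.20.

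Among 29 cytotoxic granule and NK cell genes 17 had positive differences, with a median of 0.02 and 2 past the unadjusted threshold. Srgn encodes serglycin, the proteoglycan of granules in lymphocytes and myeloid cells alike. It was the 1 gene of the 116 without overlap of its groups, near the shares of 0.726% higher and 0.354% lower over all genes. It ran from -0.02 through a median of 0.11 to 0.19 in Tgfbr2+/- liver, against -0.11, -0.21, -0.03 and -0.20 in wild-type replicates 1 to 4, a difference of 0.24 ± 0.05 (SE, exact permutation p = 0.0048, the smallest that 210 splits can give, limma adjusted p = 0.372). The chemokine Xcl1 was at 0.22 ± 0.10 (exact permutation p = 0.081, limma adjusted p = 0.900). The activating receptor Klrk1 was at 0.09 ± 0.05 (exact permutation p = 0.0429, limma unadjusted p = 0.0786, limma adjusted p = 0.917).

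The B cell list had positive differences for 15 of 20 genes, with a median of 0.06, and 2 past the unadjusted threshold. Cd72, a co-receptor of B cells also found on macrophages, ran from 0.001 through a median of 0.21 to 0.23 in Tgfbr2+/- liver, against -0.18, 0.02, -0.07 and -0.04 in wild-type replicates 1 to 4. Only Tgfbr2+/- replicate 3 lay inside the wild-type range, and the difference was 0.24 ± 0.06 (SE, exact permutation p = 0.0095, limma adjusted p = 0.452). Cd22, an inhibitory lectin of B cells, was at 0.29 ± 0.13 (limma adjusted p = 0.900) and the adaptor Blnk at 0.46 ± 0.21. Plasma cell genes had positive differences for 7 of 9, with a median of 0.08 and 0 past the unadjusted threshold, and Jchain, the joining chain of secreted antibody, was at 0.28 ± 0.18, Tnfrsf17 at 0.08 ± 0.06 and Txndc5 at 0.15 ± 0.13. Homing and cytokine receptor genes had positive differences for 11 of 14, with a median of 0.04. Itgal, the integrin chain of LFA-1 on most leukocytes, was the 1 past the unadjusted threshold, at 0.41 ± 0.08 (exact permutation p = 0.0095, limma adjusted p = 0.270). Cxcr5 was at 0.21 ± 0.12 and Il7r at -0.09 ± 0.05.

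**Figure D4:**
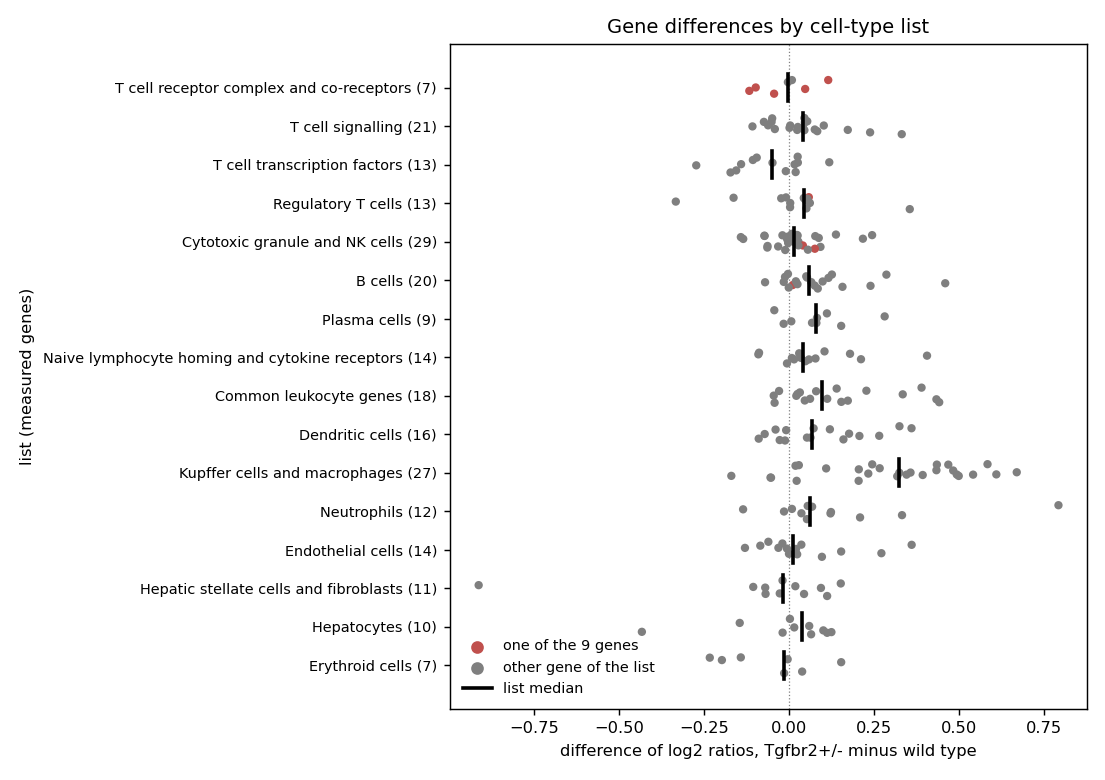
Difference of log2 ratios, Tgfbr2+/- minus wild type (horizontal axis), of each measured gene in 16 cell-type lists (rows, with the number of genes). Red points are the 9 genes, grey points the others and black bars list medians. Medians of the 8 lymphocyte lists lie between -0.05 and 0.08, and that of Kupffer cells and macrophages at 0.32.

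Markers of other cells that share genes with lymphocytes were read in the same way. Of 18 common leukocyte genes 15 had positive differences, with a median of 0.10 (0.05 with wild-type replicate 1 turned in sign). Past the unadjusted threshold were 5, all higher (27.8%). Of all genes 2.97% were higher and 2.57% lower at that threshold. Laptm5, a lysosomal protein of blood cells, had the smallest p, at 0.39 ± 0.07 (limma adjusted p = 0.211). Ptprc, which encodes CD45 of all leukocytes, ran from 0.04 through a median of 0.19 to 0.60 in Tgfbr2+/- liver, against -0.23, -0.33, -0.19 and -0.06 in wild-type replicates 1 to 4, without overlap and with a difference of 0.44 ± 0.10 (SE, exact permutation p = 0.0048, limma adjusted p = 0.365). Of 27 Kupffer cell and macrophage genes 24 had positive differences, with a median of 0.32, and 19 were past the unadjusted threshold (70.4%), led by Cd5l at 0.67 ± 0.10 (limma adjusted p = 0.115). These values are with the signs as deposited. In the 2 unsettled columns Cd5l was at 0.52 (Tgfbr2+/- replicate 5) and -0.39 (wild-type replicate 1). The mean of the Kupffer cell and macrophage list ran from 0.01 to 0.22 in Tgfbr2+/- liver and from -0.18 to -0.11 in wild type. The median r between its genes over the 10 libraries was 0.49, against -0.002 for the 9 genes. It was 0.28 for homing and cytokine receptor genes, 0.20 for B cell genes, 0.11 for T cell transcription factors and 0.07 for cytotoxic and NK cell genes. For the other lymphocyte lists it was 0.07 (T cell receptor), 0.06 (T cell signalling), -0.08 (regulatory T cells) and -0.10 (plasma cells). Common leukocyte genes had 0.22, and hepatocyte and neutrophil genes had 0.20 each. Group means were not removed, so a difference between the groups enters these r. Lcp2, Srgn, Cd72, Itgal and Ptprc are expressed in macrophages as well, and the part of macrophages in their differences was not tested. Dendritic cell genes had a median of 0.07 over 16, with 3 past the unadjusted threshold, all higher (18.8%). Clec10a had the smallest p, at 0.36 ± 0.11. Neutrophil genes had a median of 0.06 over 12, with 3 past the unadjusted threshold, all higher (25%), and S100a9 at 0.79 ± 0.18. Endothelial (0.01 over 14, Clec4g at 0.27 ± 0.08), stellate (-0.02 over 11, Lrat at 0.15 ± 0.08), hepatocyte (0.04 over 10, G6pc at -0.43 ± 0.24) and erythroid genes (-0.01 over 7, Alas2 at 0.15 ± 0.05) had medians of these sizes. For hepatocyte genes the mean, at -0.01, differed in sign from the median. Past the unadjusted threshold were 2 endothelial genes (14.3%) and 1 erythroid gene (14.3%), all higher, and 0 stellate or hepatocyte genes.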

How the data were processed

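Liver total RNA was profiled on 2-colour arrays, with extraction on Qiagen RNeasy columns and aminoallyl MessageAmp II labelling per the labels' protocols. The authors deposited log10 ratios of sample and pool, 1 column per mouse. The base is inferred from 8 values at exactly 2 or -2, a 100-fold limit. Scanner, background correction, normalization and the joining of dye swaps are not given in the sources used here. Column medians were 0.0013 to 0.0047. Values were multiplied by 3.32 to log2, none being missing, and probes averaged per symbol (17726 probes with 1 symbol, 50 with several and 5662 unnamed here, of 23438). No counts or intensities were used, and the number of arrays limits the precision.

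Groups came from the titles. Across all 16383 genes, limma 3.58.1 (lmFit and eBayes, two-sided, R 4.3.3) compared 6 Tgfbr2+/- with 4 wild-type libraries, with Benjamini-Hochberg adjustment. It was tested on simulated data. Single genes also had an exact two-sided permutation test over 210 splits, whose smallest p is 0.0048. Correlations used 100000 permutations. The 9 genes and 16 lists were chosen with earlier results of these data known. Named are the 9 genes, in each lymphocyte list the 3 others of smallest p, in other lists 1, the 3 most similar genes, and Tgfbr2. Ptprc was chosen after its values were seen. Symbols are those of the platform annotation, of which 0 changed on comparison with RefSeq by Entrez ID, and promoter windows are from RefSeq, GRCm38.p6. Alternatives were the sign of 2 columns, array weights, 3 other scalings, robust eBayes, the replicate number as a block, other probe rules and each library left out. Repeating the correlation of Cd3d and Cd3g with a column turned was chosen after seeing the data.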

Additional observations from a re-analysis of the deposited data

How the results depend on the processing

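Over 20 alternatives per gene, 0 of the 9 genes passed an adjusted p of 0.05 in any, and the differences of Cd3d, Cd3e, Cd4, Cd8a, Foxp3, Gzmb and Nkg7 kept their sign but not their size, with Gzmb at 0.0034, Foxp3 at 0.0084 and Cd3e at 0.02 when Tgfbr2+/- replicate 5 was turned in sign, Nkg7 at 0.01 without Tgfbr2+/- replicate 2 and Cd4 at -0.04 without wild-type replicate 2. That of Cd3g was 0.083 with Tgfbr2+/- replicate 5 turned in sign and ran from -0.149 to 0.0255 when each library was left out. That of Cd79a ran from -0.00753 to 0.0346 when each was left out. The number of the 9 genes past an unadjusted p of 0.05 ran from 0 to 1 over these fits, the genes being Cd3d without Tgfbr2+/- replicate 6 and Cd4 without wild-type replicate 3. The number of all genes past the adjusted threshold ran from 0 to 10, with 10 without Tgfbr2+/- replicate 3. The labels state no pairing, so the replicate numbers were not taken as pairs. Deviations of same-numbered libraries correlated at 0.09, 0.09, 0.30 and 0.007, and 2 of the 4 wild-type libraries correlated best with their own number. These values do not settle whether the numbers mark pairs. With the replicate block the differences of Cd3d, Cd3e and Cd4 were -0.11, 0.07 and -0.10 (limma adjusted p = 0.609, 0.683 and 0.661), and 1518 genes had an unadjusted p under 0.05, against 908 without it. It changed no call of the 9 genes. Each of the 9 genes has 1 probe, so the probe rules moved only the genes around it. Of 304 recomputed list medians 285 moved by less than the SD of the list mean among wild-type libraries. The median of T cell transcription factors was 0.02 and that of plasma cell genes -0.003 with Tgfbr2+/- replicate 5 turned in sign, and those of the T cell receptor and the cytotoxic and NK cell lists were 0.009 and -0.00017 with wild-type replicate 1 turned. The cytotoxic and NK cell median was -0.001 with the replicate block, and that of common leukocyte genes 0.05 with wild-type replicate 1 turned. The cause of these changes was not tested. Without intensities, a gene near background cannot be told from one that did not differ.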
